A study of Mus musculus with 5 samples.

Results

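A group of 30 genes was lower in every library labelled BVE-Ctnnb1null than in both BVE-Ctnnb1wt libraries of mouse thyroid tumor cells, by at least 4 times between the nearest libraries. The genes were chosen on these measured values. FPKM, the deposited read number scaled to transcript length and library size, was summed per gene, and a gene was kept when its lowest value in the wt libraries was at least 2 FPKM and at least 4 times its highest value in the null libraries, with null values under 0.1 FPKM raised to 0.1. Of 17923 genes listed in at least 1 library, 7480 had a lowest wt value of at least 2 FPKM and 40 of these (0.535%) met the ratio. The rule then left out 10 of the 40 by name, namely 5 genes whose names start with H2- (H2-L, H2-Bl, H2-Q2, H2-T10 and H2-K2) and Gm8909, Crabp1, Car9, Eno2 and Ubb-ps. Because the selection used the comparison of wt with null libraries, the differences below are a description without a test. The same rule with the groups exchanged kept 204 genes.

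The cells were lines, labelled as thyroid epithelial, grown from thyroid tumors of mice carrying BrafV600E, an oncogenic form of the kinase Braf, so all groups share this driver. BVE-Ctnnb1wt cells kept Ctnnb1, the gene of β-catenin, and BVE-Ctnnb1null cells came from tumors in which it was labelled as deleted. Both wt libraries are of the BVE line at passage 20. Replicate 1 was grown without thyroid-stimulating hormone (TSH) and replicate 2 with it. The 3 null libraries carried the line names BVECTN_4 (replicate 1, passage 8, without TSH), BVECTN_4A (replicate 2, passage 11) and BVECTN_5 (replicate 3, passage 7), and TSH was not stated for the last pair. The protocol text gives other conditions, about 25 passages for wt and 20 for null cells and medium with 4 mU/mL bovine TSH. The promoter driving Cre and the ages of the mice are not given in the sources used here, and neither is whether BVECTN_4 and BVECTN_4A came from 1 tumor. Genotype cannot be told apart from cell line or passage, and the spread within the wt group is that of 1 line. Total estimated counts were 30432737 and 30713079 in the wt libraries, compared with 29929677, 29360002 and 29415980 in BVECTN_4, BVECTN_4A and BVECTN_5. A count of 0 in a library allows up to 3 counts, or between 0.0977 and 0.102 CPM (counts scaled to the library total), from counting error only.

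β-catenin is known for roles at the membrane and in the nucleus. At the membrane it links cadherins of adherens junctions to the actin cytoskeleton, and in the nucleus it acts with the DNA-binding TCF/LEF factors to turn on the targets of Wnt signaling. Without a Wnt signal, a complex holding Apc and axin marks β-catenin for destruction. Secreted antagonists such as the dickkopf proteins act upstream, at the Wnt co-receptors of the LRP family.

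Ctnnb1 RNA itself went against the null labels, with 59.3 and 73.8 FPKM in wt replicates 1 and 2 and 125, 196 and 118 FPKM in BVECTN_4, BVECTN_4A and BVECTN_5. Since values are given per whole transcript, exons that were deleted cannot be seen on their own. Every statement on null libraries below therefore refers to libraries by their label. Axin2, a widely used readout of nuclear β-catenin, stood at 0.97 and 1.48 FPKM in the wt libraries and at 0, 0.09 and 0.81 FPKM in the null libraries, below 2 FPKM throughout. It is on a list of 25 Wnt targets and feedback genes, of which 17 had a mean of at least 0.5 FPKM. Of these, 3, with Axin2 among them, were below both wt libraries in every null library, and 6, with Myc among them, were above. Myc stood at 34.46 and 12.96 FPKM in the wt libraries and at 51.42, 41.76 and 60 FPKM in the null libraries. Nkd1 overlapped between the groups, at 1.98 and 0.93 FPKM against 0.01, 0.04 and 6.56 FPKM.

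**Figure D1:**
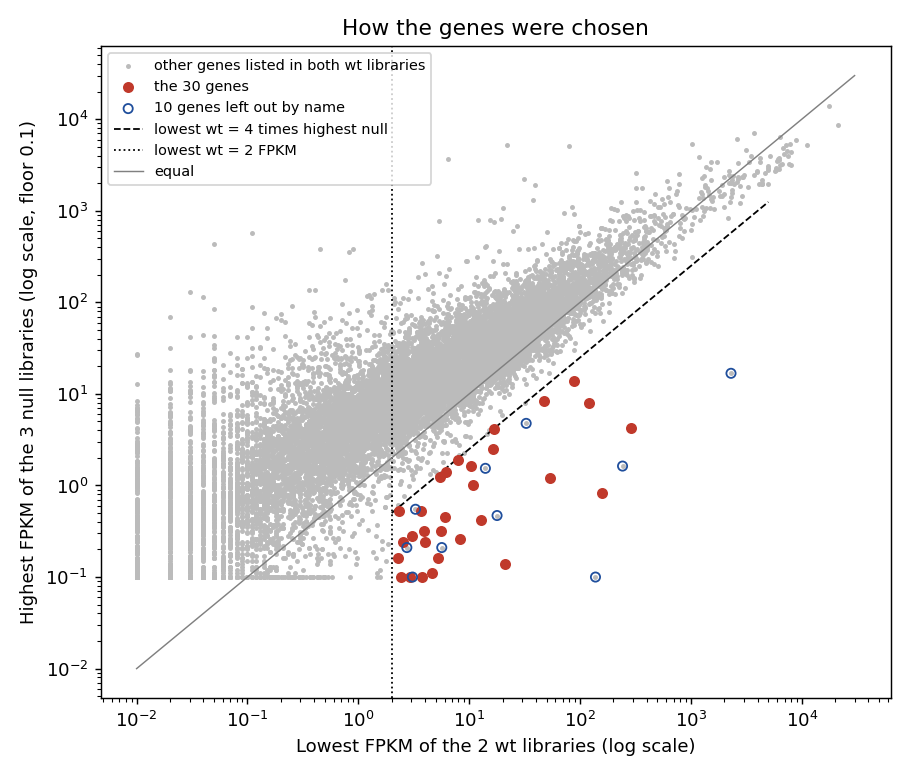
Lowest FPKM of the 2 wt libraries (horizontal, log scale) against the highest FPKM of the 3 null libraries (vertical, log scale, floor 0.1), with 1 point per gene listed in both wt libraries. Filled red points are the 30 genes, open circles the 10 left out by name, and the dotted and dashed lines the limits of 2 FPKM and 4 times; most other genes lie on or above the line of equal values.

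The selected direction was the less common one in these files. Among 11880 genes with a mean of at least 0.5 FPKM, every null library was below both wt libraries for 862 (7.26%) and above both for 4217 (35.5%). The median log2 ratio of null over wt FPKM across these genes was 0.80, and the FPKM of all genes summed to 740786 and 771332 in the wt libraries but to 584696, 581385 and 622125 in BVECTN_4, BVECTN_4A and BVECTN_5. A gene with an unchanged share of the FPKM thus reads higher in the wt libraries, while the typical gene reads higher in the null libraries. With FPKM scaled to the same sum in each library, a setting added after the data were seen, 24 of the 30 genes still met the rule. Arxes1, Engase, Vwa1, Ush1g, Gm16062 and Bvht did not. Scaling by TMM factors instead moved the number the other way, to 60 genes with all 30 among them.

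Of the 30 genes, 26 are annotated as protein coding, 3 as long noncoding RNA (Gm53, Gm16062 and Bvht) and 1 as a microRNA (Mir196a-1). Their lowest wt value ranged from 2.29 FPKM for Arxes1 to 286 FPKM for Cxcl14, with a median of 6.10 against 11.2 FPKM over all 7480 genes. It reached 10 FPKM in 12 genes and 50 FPKM in 5 genes (Cxcl14, Vip, Plac8, Penk and Ptgis). In 18 of the 30 genes every null library stood under 1 FPKM. Summed over the 30 genes, FPKM was 1002 and 1081 in the wt libraries, compared with 20.7, 38.5 and 28.9 in BVECTN_4, BVECTN_4A and BVECTN_5, and Cxcl14 alone made up 338 and 286 of the wt sums. In bulk RNA, fewer cells that express a gene and less of its RNA per cell cannot be told apart.

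**Figure D2:**
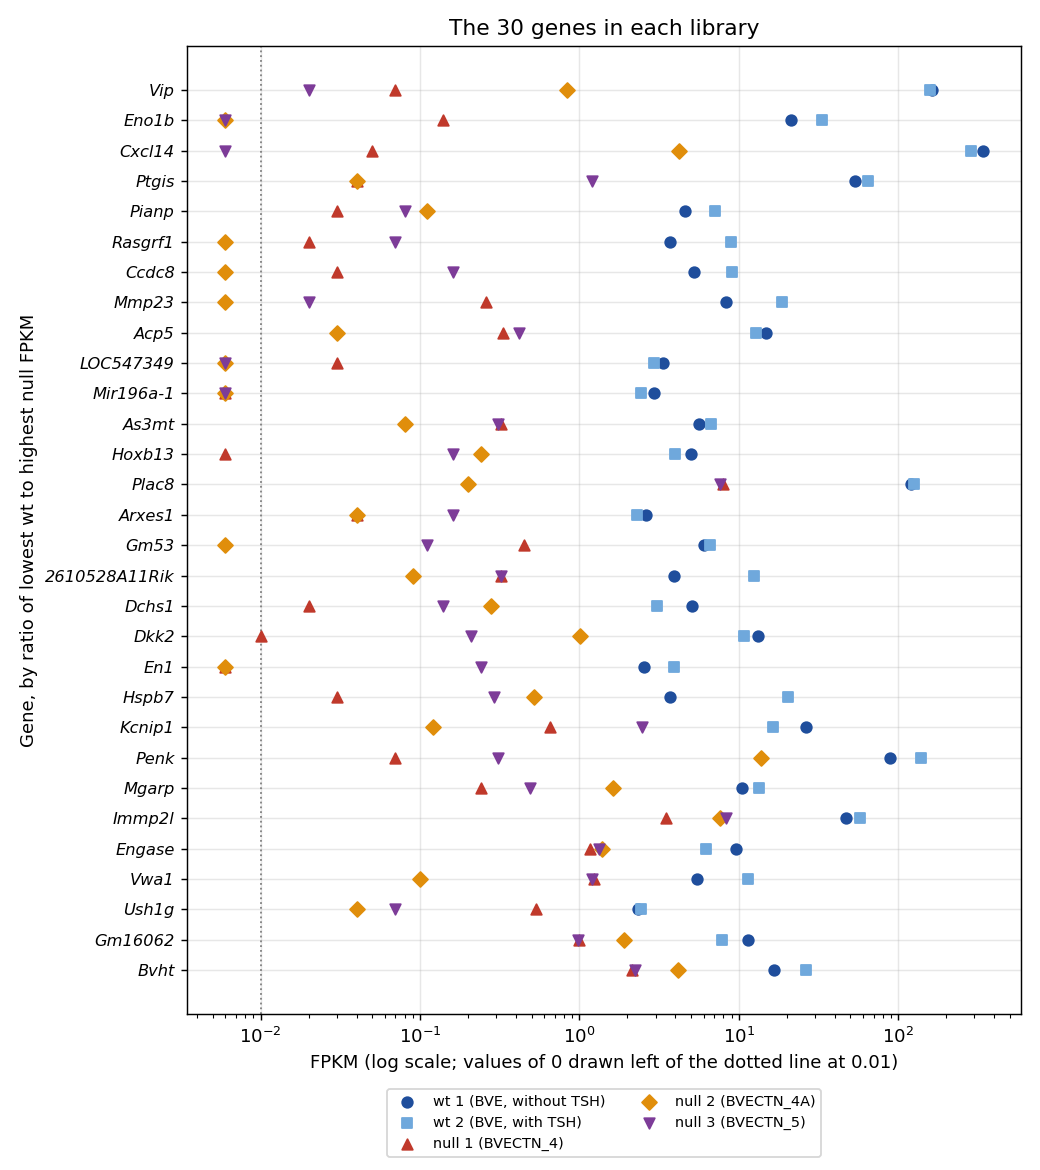
FPKM of each of the 30 genes (horizontal, log scale, values of 0 drawn left of the dotted line) in the 5 libraries, with 1 symbol per library and genes ordered by the ratio of the lowest wt to the highest null value. The wt symbols of a gene lie close together for most genes, while the null symbols of genes such as Cxcl14, Penk and Plac8 spread widely.

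Among the members that encode secreted factors were Vip, Penk, Cxcl14 and Dkk2. Vip (NCBI gene 22353) encodes vasoactive intestinal peptide, a neuropeptide that raises cyclic AMP in its target cells through G protein-coupled receptors. It stood at 162 and 159 FPKM in wt replicates 1 and 2 and at 0.07, 0.83 and 0.02 FPKM in BVECTN_4, BVECTN_4A and BVECTN_5. These values rest on 7536 and 7491 counts in the wt libraries and on 3, 37 and 1 counts in the null libraries. The wt mean was 160 ± 1.85 FPKM (SD, n = 2) and the null mean 0.307 ± 0.454 FPKM (SD, n = 3), and the lower wt library was 192 times the highest null library, the largest such ratio of the 30. The Vip receptors were near 0 in all libraries, with Vipr1, Vipr2 and Adcyap1r1 at no more than 0.12 FPKM.

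Penk (18619) encodes proenkephalin, the precursor of enkephalin opioid peptides. It stood at 88.6 and 139 FPKM in the wt libraries and at 0.07, 13.8 and 0.31 FPKM in BVECTN_4, BVECTN_4A and BVECTN_5. BVECTN_4A thus kept Penk at 583 counts, where BVECTN_4 had 3 and BVECTN_5 had 13. Cxcl14 (57266), a chemokine made by many epithelia, was the most abundant member, at 338 and 286 FPKM in the wt libraries and at 0.05, 4.23 and 0 FPKM in the null libraries. BVECTN_4A was again the highest null line, with 230 counts against 3 in BVECTN_4 and 0 in BVECTN_5. Cxcl12, another chemokine gene, showed no such order, at 66.3 and 115 FPKM in the wt libraries and 6.33, 128 and 138 FPKM in the null libraries.

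Dkk2 (56811), a dickkopf protein that binds LRP co-receptors and modulates Wnt signaling, stood at 13.2 and 10.8 FPKM in the wt libraries and at 0.01, 1.01 and 0.21 FPKM in the null libraries. Its ratio was 10.6. Dkk3, a more distant dickkopf relative, missed the rule narrowly, at 32.1 and 47.4 FPKM against 2.17, 8.06 and 0.16 FPKM and a ratio of 3.98. Of the receptors of Dkk2, Lrp5, Lrp6 and Kremen1 were above both wt libraries in every null library, an order shared by 35.5% of all genes with a mean of at least 0.5 FPKM and by 12 of the 37 listed partner genes looked up for the members, of which 4 lay below. Lrp5 stood at 6.42 and 8.21 FPKM in the wt libraries and at 75.5, 9.65 and 12.3 FPKM in the null libraries. 2610528A11Rik (70045), for which RefSeq gives the synonym Gpr15l, a ligand of the receptor Gpr15, stood at 3.91 and 12.5 FPKM in the wt libraries and at 0.32, 0.09 and 0.32 FPKM in the null libraries. Among the members, only Hspb7 differed more between the wt libraries.

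Several members encode enzymes. Ptgis (19223), prostacyclin synthase, stood at 53.3 and 64.5 FPKM in the wt libraries and at 0.04, 0.04 and 1.20 FPKM in BVECTN_4, BVECTN_4A and BVECTN_5. Only BVECTN_5 held more than 2 counts among the null libraries, with 62. Upstream of it, the cyclooxygenase gene Ptgs1 was below both wt libraries in every null library as well, at 75.1 and 55.9 FPKM against 25.6, 19.3 and 32.1 FPKM. The inducible cyclooxygenase Ptgs2 overlapped between the groups, at 21.8 and 7.45 FPKM in the wt libraries and 15.4, 27.9 and 36.1 FPKM in the null libraries. The prostacyclin receptor gene Ptgir stood at 1.59 FPKM in BVECTN_5 and at no more than 0.05 FPKM in the others.

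Acp5 (11433), the tartrate-resistant acid phosphatase known from osteoclasts, stood at 14.7 and 12.7 FPKM in the wt libraries and at 0.33, 0.03 and 0.42 FPKM in the null libraries. Its counts were spread over 3 transcripts, each of them higher in the wt libraries. As3mt (57344), which methylates arsenic, was at 5.59 and 6.71 FPKM in the wt libraries and at 0.32, 0.08 and 0.31 FPKM in the null libraries. Engase (217364), which releases N-glycans from proteins in the cytosol, stood at 9.55 and 6.20 FPKM in the wt libraries and had similar values in the null libraries, 1.16, 1.39 and 1.33 FPKM. Its ratio of 4.46 placed it near the limit.

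Eno1b (433182), a retrotransposed copy of the glycolytic enolase gene Eno1, had the second largest ratio, 151. It stood at 21.2 and 33.1 FPKM in the wt libraries and at 0.14, 0 and 0 FPKM in the null libraries. Its estimated counts were not whole, 1163 and 1836 in the wt libraries, as estimates are when reads match several sequences. The parent gene is far more abundant, with Eno1 at 2629 and 3687 FPKM in the wt libraries and 940, 2055 and 963 FPKM in the null libraries, and the level of Eno1b is uncertain. Immp2l (93757), a subunit of the peptidase of the inner mitochondrial membrane, stood at 47.0 and 57.4 FPKM in the wt libraries and at 3.51, 7.64 and 8.30 FPKM in the null libraries, so every null line kept some of its RNA. Its partner subunit gene Immp1l overlapped between the groups, at 18.4 and 24.5 FPKM against 10.0, 38.3 and 33.5 FPKM. Mgarp (67749), another mitochondrial protein gene, stood at 10.4 and 13.3 FPKM in the wt libraries and at 0.24, 1.63 and 0.49 FPKM in the null libraries.

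Signaling, adhesion and matrix genes formed a further part of the group. Rasgrf1 (19417), an exchange factor that activates Ras upstream of Braf, stood at 3.72 and 8.87 FPKM in the wt libraries and at 0.02, 0 and 0.07 FPKM in the null libraries. It was 1 of 3 members, with LOC547349 and Mir196a-1, that had at most 3 counts in every null library. Its substrate Nras was above both wt libraries in every null library, at 16.1 and 13.6 FPKM against 24.3, 29.2 and 17.6 FPKM, whereas its substrate Hras overlapped between the groups, at 25.7 and 29.9 FPKM against 73.0, 40.5 and 26.7 FPKM. Kcnip1 (70357), a calcium-binding subunit of voltage-gated potassium channels, stood at 26.2 and 16.3 FPKM in the wt libraries and at 0.65, 0.12 and 2.48 FPKM in the null libraries. Of its 3 listed transcripts, NM_001190885 stood at 4.63 FPKM in the wt library without TSH and 0.46 FPKM in the one with TSH, while the main transcript NM_027398 stood at 21.5 and 15.8 FPKM.

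Dchs1 (233651), a giant cadherin that binds the cadherin Fat4 on neighbouring cells, stood at 5.05 and 3.06 FPKM in the wt libraries and at 0.02, 0.28 and 0.14 FPKM in the null libraries. Fat4 lay in the opposite direction at low levels, with 0.10 and 0.07 FPKM in the wt libraries and 0.11, 0.61 and 1.97 FPKM in the null libraries. Mmp23 (26561), a membrane-anchored matrix metalloproteinase, stood at 8.24 and 18.6 FPKM in the wt libraries and at 0.26, 0 and 0.02 FPKM in the null libraries. Mmp2, a secreted gelatinase, was also below both wt libraries in every null library but not by the ratio asked, at 80.9 and 77.9 FPKM against 7.87, 51.1 and 5.65 FPKM. Mmp14, a membrane-bound relative, overlapped between the groups, at 33.6 and 41.5 FPKM against 70.8, 54.2 and 40.6 FPKM. Vwa1 (246228), a matrix protein, stood at 5.46 and 11.5 FPKM against 1.24, 0.10 and 1.19 FPKM. BVECTN_4A had the lowest Vwa1 value by far.

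Plac8 (231507), a small cysteine-rich protein gene first known from placenta, was the third most abundant member by its lowest wt value. It stood at 120 and 126 FPKM in the wt libraries and at 7.98, 0.20 and 7.66 FPKM in BVECTN_4, BVECTN_4A and BVECTN_5. BVECTN_4A was its lowest null line, whereas it was the highest for Cxcl14 and Penk. Hspb7 (29818), a small heat shock protein known from heart muscle, had the least similar wt libraries, 3.69 and 20.2 FPKM, with 0.03, 0.52 and 0.29 FPKM in the null libraries. Its estimated counts were not whole either. Other small heat shock genes did not share this order, since Hspb1 overlapped between the groups and Cryab was higher in every null library, at 194, 69.8 and 93.8 FPKM against 16.3 and 25.5 FPKM. Ccdc8 (434130), a component of the 3M complex, stood at 5.22 and 9.08 FPKM in the wt libraries and at 0.03, 0 and 0.16 FPKM in the null libraries, while in that complex the cullin gene Cul7 was above both wt libraries in every null library and Obsl1 overlapped between the groups.

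The remaining protein-coding members had low levels. Pianp (319352), which encodes a ligand of an immunoglobulin-like receptor, stood at 4.58 and 7.07 FPKM in the wt libraries and at 0.03, 0.11 and 0.08 FPKM in the null libraries, for a ratio of 41.6. Ush1g (16470), a scaffold protein of inner ear hair cells, stood at 2.33 and 2.43 FPKM against 0.53, 0.04 and 0.07 FPKM. Arxes1 (76219) stood at 2.61 and 2.29 FPKM against 0.04, 0.04 and 0.16 FPKM, but its near copy Arxes2 overlapped between the groups at 7.78 and 7.38 FPKM against 0.29, 10.7 and 7.52 FPKM. Estimated counts of Arxes1 were not whole, so how reads were divided between these copies could move its values. LOC547349 (547349) stood at 3.36 and 2.93 FPKM against 0.03, 0 and 0 FPKM. RefSeq gives H2-K1, a class I histocompatibility gene, as its synonym, so it belongs to the family that the rule left out by name, and its counts of 121 and 107 in the wt libraries were also not whole.

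Homeobox genes and their neighbours gave the only run of members that lie side by side on the RefSeq annotation of GRCm38.p6. Hoxb13 (15408), the gene at the posterior end of the Hoxb cluster, stood at 5.03 and 3.99 FPKM in the wt libraries and at 0, 0.24 and 0.16 FPKM in BVECTN_4, BVECTN_4A and BVECTN_5. Gm53 (193022), a long noncoding RNA gene, is next to it and stood at 6.00 and 6.60 FPKM against 0.45, 0 and 0.11 FPKM. Mir196a-1 (387191) follows, at 2.93 and 2.42 FPKM against 0 in every null library. Its FPKM came from 6 and 5 counts over the 102 bases of the hairpin, so its ratio of 24.2 rests on the floor of 0.1 FPKM, and against 3 counts in each null library the ratio of means would be 1.77, with the small wt counts taken as exact. Libraries of this kind do not measure the mature microRNA. The sequence is shown because its seed, bases 2 to 8 in capitals, is what microRNAs pair with targets. RefSeq gives the same 5p arm for Mir196a-2 on chromosome 15 and a 5p arm with the same seed for Mir196b on chromosome 6, neither of which is a member.
mmu-miR-196a-5p (GRCm38.p6, plus strand, chr11:96265187-96265208): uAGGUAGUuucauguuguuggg
mmu-miR-196a-1-3p (GRCm38.p6, plus strand, chr11:96265225-96265246): cAACGACAucaaaccaccugau
mmu-miR-196b-5p (GRCm38.p6, minus strand, chr6:52230129-52230150): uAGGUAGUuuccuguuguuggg

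The run ended at Hoxb9. This next gene of the cluster stood at 20.1 and 8.31 FPKM in the wt libraries and at 73.0, 2.87 and 21.0 FPKM in BVECTN_4, BVECTN_4A and BVECTN_5, so the groups overlapped. None of the listed Hoxb genes from Hoxb9 to Hoxb2 was below both wt libraries in every null library, and Hoxb6 and Hoxb2 were above both in every null library. The list of 30 Hox genes, which does not hold Hoxb13, has 20 genes with a mean of at least 0.5 FPKM. Of these, 1 (Hoxa4) was below both wt libraries in every null library and 2 were above. Over all 11880 genes with that mean, the shares were 7.26% below and 35.5% above. En1 (13798), a homeobox factor outside the Hox clusters known from midbrain and limb patterning, stood at 2.55 and 3.90 FPKM in the wt libraries and at 0, 0 and 0.24 FPKM in the null libraries. Its paralog En2 was listed only in BVECTN_4A, at 0.03 FPKM.

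**Figure D3:**
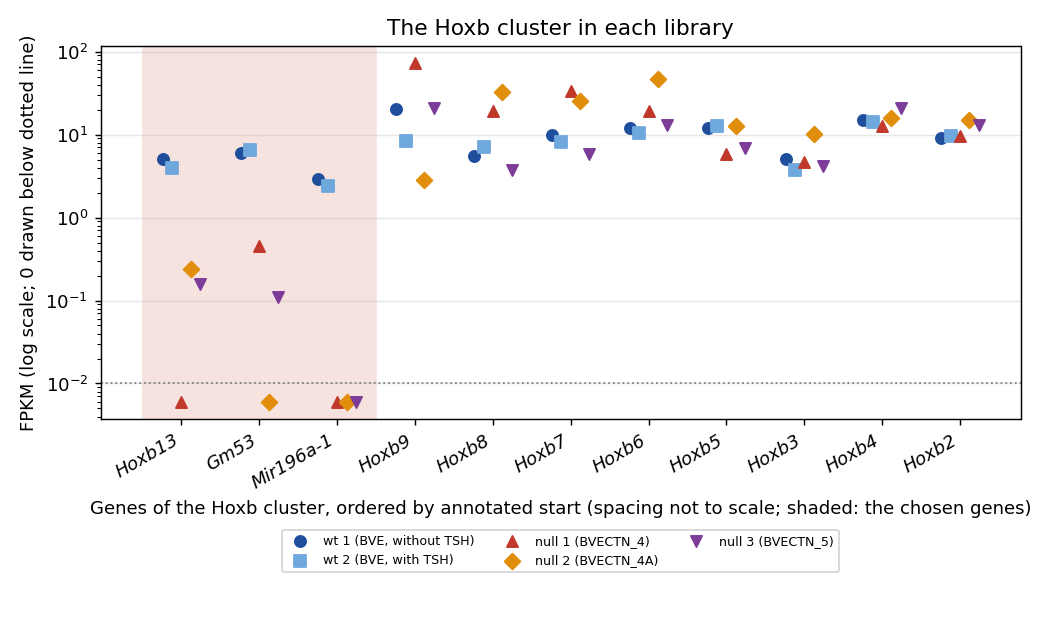
FPKM (vertical, log scale, values of 0 drawn below the dotted line) of the listed genes of the Hoxb cluster, ordered by annotated start and not spaced to scale, with 1 symbol per library. The shaded members Hoxb13, Gm53 and Mir196a-1 have both wt symbols above all null symbols, and from Hoxb9 onward the groups overlap in most genes.

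Outside this run the members were scattered. On chromosome 11 lay 7 of them (23.3%), Hoxb13, Gm53, Mir196a-1, Kcnip1, Engase, Ush1g and Gm16062, against 9.48% of the 7480 genes, and on chromosome 4 lay 4 (13.3%, against 6.43%). The other chromosomes held no more than 2 each. Of the 55 nearest listed neighbours that are not members, 29 had a lowest wt value of at least 2 FPKM. A neighbour at that level that met the ratio of 4 would itself be a member, unless left out by name. That 0 of the 29 met it therefore followed from taking the members out and says nothing on scatter. With members taken out, the median of their lowest wt over highest null values was 0.517. Over all 7480 genes, members included, it was 0.439. A neighbour of Bvht, Il17b, showed a similar order below the level asked, at 1.56 and 4.15 FPKM in the wt libraries and 0.05, 0 and 0 FPKM in the null libraries. It was picked out after its values were seen.

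The long noncoding members other than Gm53 were close to the limit of the rule. Gm16062 (100504104) stood at 11.3 and 7.85 FPKM in the wt libraries and at 1.00, 1.89 and 0.98 FPKM in the null libraries, for a ratio of 4.15, from estimated counts that were not whole. Bvht (545261), called Braveheart and known from commitment of heart cells, stood at 16.7 and 26.5 FPKM against 2.13, 4.12 and 2.22 FPKM and had the smallest ratio, 4.05. Just outside the limit lay Septin4 (3.98), Dkk3 (3.98), Atp6v1c2 (3.79), Inka1 (3.78) and Glrp1 (3.75), each number being the ratio of the lowest wt to the highest null FPKM. On the annotation 11 members overlap another gene, 8 of them a gene listed in the files. Among these, Gm16062 overlaps Cops3, at 52.8 and 35.0 FPKM in the wt and 29.9, 82.0 and 70.1 FPKM in the null libraries, Pianp overlaps Cops7a and Mmp23 overlaps Mib2. The sources used here do not say whether reads were counted by strand, and without strand the reads of overlapping genes cannot be told apart.

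Promoter windows, 250 bases before to 50 bases after a RefSeq start on GRCm38.p6, were found for 19 of the 30 genes, 27 windows in all. A comparison of base composition or motifs over the whole group is void at that coverage, and single matches are given as a description. Both strands were searched for TCF/LEF letters (CTTTG followed by AA, AT, TA or TT), AP-1 letters (TGANTCA) and the cyclic AMP response element (TGACGTCA). Over all 27025 genes with a window, 18.9% held a TCF/LEF match, 8.97% an AP-1 match and 2.03% a cyclic AMP response element. Over the 6067 of the 7480 genes that have a window, the shares were 12.9%, 6.16% and 3.84%. TCF/LEF letters occurred in 1 of 2 windows of Plac8 and in 1 of 3 windows of Acp5, AP-1 letters in As3mt and En1, and the cyclic AMP response element in Gm16062, with a single match in each of these windows. The 3 windows below are shown because they belong to the member with the largest ratio and to both members with TCF/LEF letters, which are in capitals and begin at position -70 in Plac8 and -232 in Acp5 from the start site. Vip has no match of the letters searched. Each is printed along the strand of its gene.
Vip (GRCm38.p6, plus strand, chr10:5638968-5639267): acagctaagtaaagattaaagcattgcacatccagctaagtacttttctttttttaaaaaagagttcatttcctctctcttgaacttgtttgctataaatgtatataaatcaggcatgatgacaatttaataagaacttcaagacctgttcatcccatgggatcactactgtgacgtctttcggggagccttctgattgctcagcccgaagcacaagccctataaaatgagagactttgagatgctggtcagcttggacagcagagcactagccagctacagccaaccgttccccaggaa
Plac8 (GRCm38.p6, minus strand, chr5:100572156-100572455): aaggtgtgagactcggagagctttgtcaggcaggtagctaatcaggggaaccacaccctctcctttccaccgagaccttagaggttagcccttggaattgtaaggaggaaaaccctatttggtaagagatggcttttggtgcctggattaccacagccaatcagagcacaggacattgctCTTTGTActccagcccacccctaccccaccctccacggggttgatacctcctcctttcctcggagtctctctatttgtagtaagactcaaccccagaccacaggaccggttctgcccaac
Acp5 (GRCm38.p6, minus strand, chr9:22135697-22135996): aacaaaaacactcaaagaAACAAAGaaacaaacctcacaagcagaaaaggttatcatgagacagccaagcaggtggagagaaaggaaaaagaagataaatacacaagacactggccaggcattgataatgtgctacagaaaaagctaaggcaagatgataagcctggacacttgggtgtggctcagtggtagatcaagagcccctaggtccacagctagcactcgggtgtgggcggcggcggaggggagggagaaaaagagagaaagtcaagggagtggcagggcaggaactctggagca

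The null lines differed in how low they held these genes. The highest null value was in BVECTN_4A for 12 members, in BVECTN_4 for 9 and in BVECTN_5 for 8, with Mir196a-1 at 0 in all. The 9 include 2610528A11Rik, which was tied at 0.32 FPKM in BVECTN_4 and BVECTN_5. In 12 members the highest null line was more than 4 times the next. The median FPKM over the 30 genes was 0.105 in BVECTN_4, 0.105 in BVECTN_4A and 0.225 in BVECTN_5, against 7.12 and 11.1 in the wt libraries. At most 3 counts were found for 14 members in BVECTN_4, for 12 in BVECTN_4A and for 8 in BVECTN_5, levels at which an absent RNA cannot be told from a rare one.

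The wt libraries differ in their TSH label. The rule used the values of both wt libraries, though not their ratio, so the shares below are a description only. There is 1 library on each side and hence no test. With TSH, 18 of the 30 genes were higher and 12 lower, and their median log2 ratio of the library with TSH over the one without was 0.20. Over the 7480 genes 37.8% were higher with TSH and the median was -0.16. At least 2-fold higher with TSH were 5 members (16.7%, against 2.97% of the 7480), namely Hspb7 (5.47-fold), 2610528A11Rik (3.18-fold), Rasgrf1 (2.38-fold), Mmp23 (2.25-fold) and Vwa1 (2.10-fold). None of the 30 was at least 2-fold lower, against 6.82% of the 7480. Vip, at 0.98 times its value without TSH, was the least different, and Dchs1, at 0.61 times, was the lowest. The rule set a minimum for the lower wt library but no limit on how far the wt libraries could lie apart. Without regard to sign, the median log2 ratio was 0.44 for the 30 genes and 0.36 for the 7480.

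**Figure D4:**
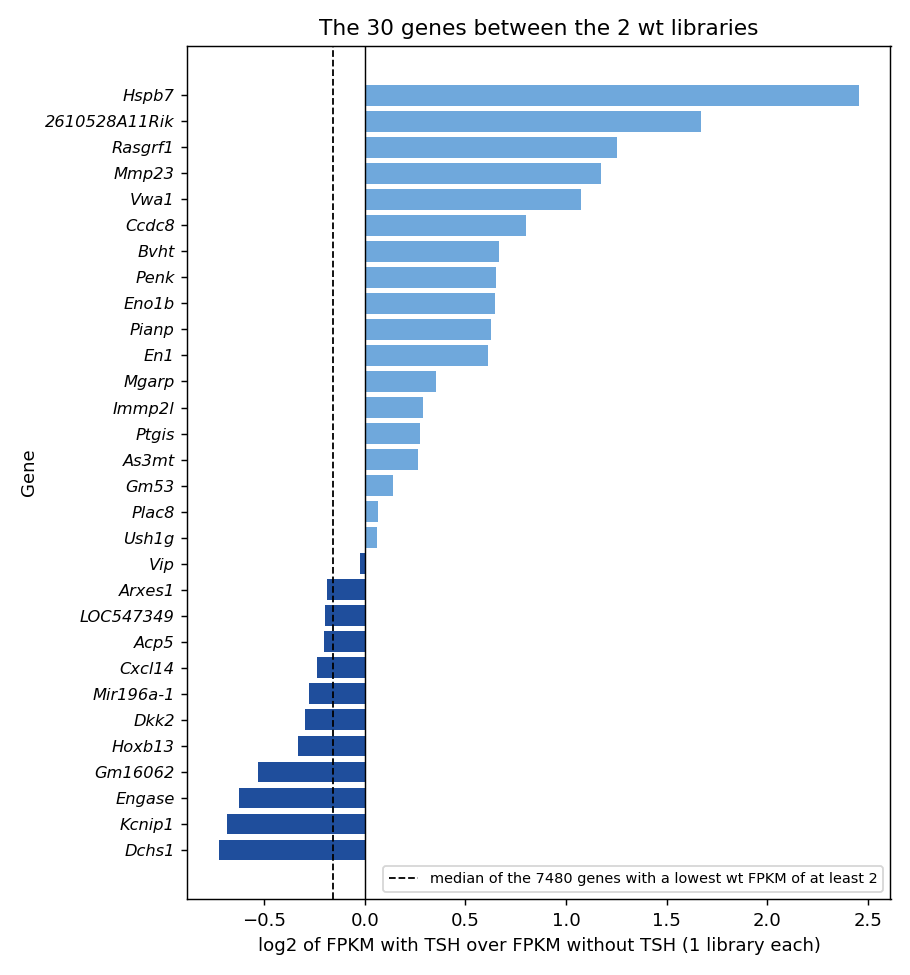
Log2 ratio of FPKM in the wt library with TSH over the wt library without TSH (horizontal) for each of the 30 genes, with the median of the 7480 genes as a dashed line. Hspb7 has the largest ratio and Dchs1 the smallest, and 18 bars point to the library with TSH.

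A test across all genes made no calls. By the quasi-likelihood test of edgeR, with p adjusted by Benjamini-Hochberg over 13240 genes, 0 genes were called lower (0%) and 0 were called higher (0%) in the null libraries at an adjusted p under 0.05, with 804 lower and 1646 higher at an unadjusted p under 0.05. The lowest adjusted p was 0.0845, and the biological coefficient of variation, the spread between libraries of a group, was 0.694. Of the 30 members, 29 passed the filter on low counts, Mir196a-1 did not, and the fitted log2 fold change lay between -9.65 (Vip) and -3.17 (Engase) with 0 calls. DESeq2 called 487 genes lower (3.68%) and 1113 higher (8.41%), and 29 of 29 members were among the former. The rule had used this contrast, so these counts say nothing more about the members. The p-values measure the spread between these libraries only.

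Gene lists chosen for the pathway and the cell types had few members in them. In the list of 25 Wnt targets and feedback genes, 17 had a mean of at least 0.5 FPKM, 3 of them were below both wt libraries in every null library and 6 were above, beside the 7.26% and 35.5% of all genes with that mean, and the median log2 ratio of null over wt was 0.76, close to the 0.80 of all genes. Dkk2 was the only member in it. By edgeR, which called no gene in the whole table, 0 of its 19 tested genes were called, and DESeq2 called Dkk2 and Dkk3 lower and Lef1 and Nkd2 higher. Lef1, a TCF/LEF factor, was not listed in either wt library and stood at 1.94, 2.87 and 1.54 FPKM in the null libraries. The list of 26 hypoxia and glycolysis genes held 14 below both wt libraries in every null library and 1 above, with a median of -1.18, and 2 of these, Car9 and Eno2, had met the ratio before being left out by name. By edgeR 0 of the 26 were called, and DESeq2 called 13 lower and 0 higher. The list of 17 retinoid genes held the left-out Crabp1, at 2302 and 2706 FPKM in the wt libraries against 5.06, 16.8 and 3.63 FPKM, while 7 of its 16 genes with a mean of at least 0.5 FPKM were above both wt libraries in every null library and 3 below. The remaining pathway lists held no member. DESeq2 called higher 6 of 15 tested retinoid, 6 of 17 imprinted, 4 of 17 TGF-β, 2 of 15 adherens junction and 1 of 17 ERK output genes, beside 8.41% of all genes. It called lower 1 of 15 retinoid, 2 of 19 interferon-stimulated (Oas1a and Cxcl10) and 2 of 13 class I antigen presentation genes (Psmb9 and Psmb10), beside 3.68% of all genes. Of genes with a mean of at least 0.5 FPKM, every null library was below both wt libraries for 1 of 15 adherens junction, 0 of 17 ERK output, 2 of 15 interferon-stimulated, 3 of 12 class I antigen presentation, 0 of 17 TGF-β and 0 of 16 imprinted genes. Every null library was above for 5, 3, 3, 2, 9 and 6 of them in the same order, counts to be read beside the 7.26% below and 35.5% above over all genes with that mean.

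Markers of cell types were compared with the summed values of the 30 genes, and their part in the low values was not tested. The 16 epithelial markers summed to 1122 and 1798 FPKM in the wt libraries and to 14282, 723 and 1480 FPKM in BVECTN_4, BVECTN_4A and BVECTN_5. Krt8 was the most abundant in the wt libraries, at 634 and 1104 FPKM, and Krt7 in BVECTN_4, at 5131 FPKM. Epcam was not listed in BVECTN_4A and stood at 152 FPKM in BVECTN_4. The 20 fibroblast and mesenchymal markers summed to 3610 and 6303 FPKM in the wt libraries and to 557, 7759 and 6177 FPKM in the null libraries. Vim led the list in the wt libraries, at 1478 and 3406 FPKM, but stood at 85.1 FPKM in BVECTN_4, below Fn1 at 234 and Sparc at 196, and Col3a1 was not listed in BVECTN_4. BVECTN_4 thus had the highest epithelial and the lowest mesenchymal sum of the 5 libraries, and BVECTN_4A the reverse. Single mesenchymal markers did not all follow the sum, which rests on abundant genes such as Vim, Sparc and S100a4. Postn (102 FPKM), Dcn (84.7 FPKM), Thy1 (88.5 FPKM), Col1a1 (570 FPKM) and Acta2 (942 FPKM) were highest in BVECTN_5. Epithelial markers were mixed in BVECTN_4A. Krt7 stood at 111 FPKM there, against 79.65 and 124 in the wt libraries, and Krt18 at 346, against 321 and 457. Cdh1 was not listed there, and Cldn7 stood at 0.03 FPKM, against 4.47 and 4.02. The epithelial label thus matched some of the markers in this line and not others. The rule asked for low values of the 30 genes in every null line, so their low level in BVECTN_4 and BVECTN_4A alike was fixed by the selection. By edgeR, which called no gene in the whole table, 0 genes of either marker list were called. DESeq2 called 1 of 16 tested epithelial markers, Krt7, higher and 0 lower. It called 0 of 17 tested mesenchymal markers in either direction, beside 8.41% of all genes higher and 3.68% lower.

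Thyroid markers were uneven. The 15 follicular cell markers summed to 15.4 and 20.7 FPKM in the wt libraries and to 43.4, 68.9 and 11.9 FPKM in the null libraries, and 8 of them, among which were Tshr, Foxe1, Duox2 and Slc26a4, were under 0.5 FPKM in every library. Thyroid transcription factors on the same list were present in some libraries. Nkx2-1 stood at 9.21 and 15.02 FPKM in the wt libraries and at 9.26, 34.8 and 0.26 FPKM in the null libraries. Pax8 stood at 0.40 and 0.17 FPKM against 18.2, 12.8 and 2.56 FPKM, and Hhex at 3.71 and 4.14 FPKM against 1.08, 20.2 and 1.38 FPKM. Slc5a5, the iodide transporter, reached 6.48 FPKM in BVECTN_4 and no more than 1.03 FPKM elsewhere. Tg stood at 0.80 and 0.86 FPKM in the wt libraries and at 0.04, 0.51 and 0.34 FPKM in the null libraries. It was the 1 gene of the 7 with a mean of at least 0.5 FPKM that was below both wt libraries in every null library. Above both were 2 of the 7, beside 7.26% below and 35.5% above over all genes with that mean. The 14 leukocyte markers summed to 6.83 and 15.8 FPKM in the wt libraries and to 59.97, 1.25 and 40.9 FPKM in the null libraries, nearly all from Cd68, with Ptprc, Cd3e, Adgre1 and Nkg7 among those not listed in any library. The 10 endothelial markers summed to at most 8.64 FPKM, in BVECTN_4A, where Flt1 stood at 8.55 FPKM. Markers of thyroid C cells, parathyroid cells and skeletal muscle summed to no more than 6.33, 2.47 and 5.64 FPKM in any library. Single C cell markers went both ways. Syp stood at 2.07 and 1.57 FPKM in the wt libraries and at 0.12, 0.11 and 0.08 FPKM in the null libraries. Calcb stood at 0.28 and 0.58 FPKM against 3.78, 1.33 and 1.22 FPKM. DESeq2 called 1 of 4 tested C cell markers, Syp, lower and 0 higher, beside 3.68% and 8.41% of all genes. Transcripts of the Y-linked genes Ddx3y, Eif2s3y and Kdm5d were listed in BVECTN_5 only, and Uty stood at 0.22 FPKM there and at 0.01 FPKM in BVECTN_4 and BVECTN_4A. Xist, expressed from an inactive X chromosome, stood at 0.03 and 0.01 FPKM in the wt libraries and at 1.34, 0.64 and 0.41 FPKM in the null libraries, and DESeq2 called it higher. Their part in the low values was not tested either.

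**Figure D5:**
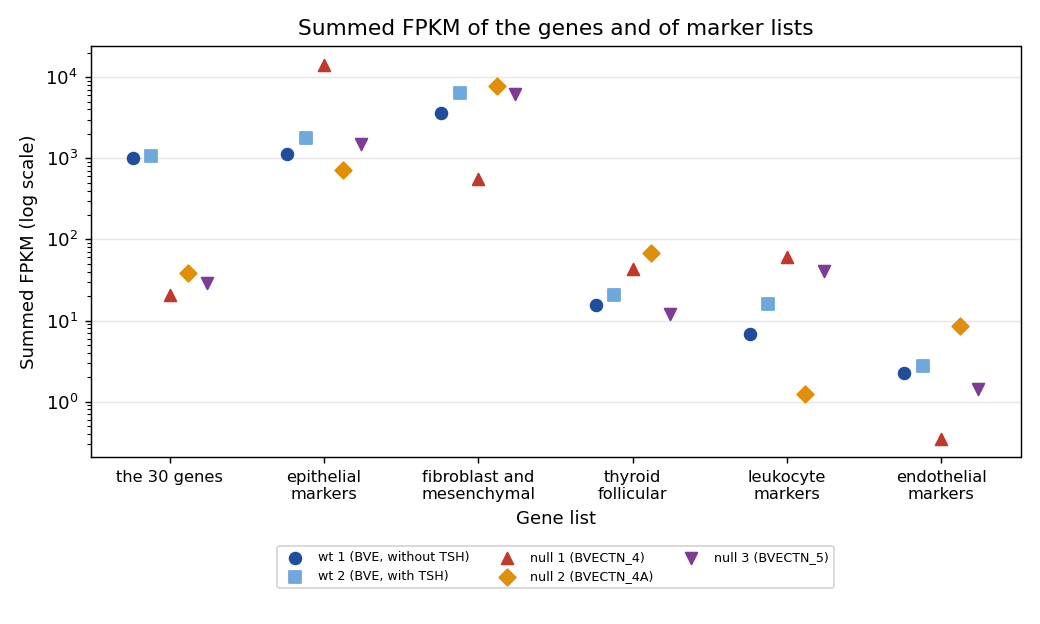
Summed FPKM (vertical, log scale) of the 30 genes and of 5 marker lists in each library, with 1 symbol per library. The 30 genes have wt symbols at 1002 and 1081 and null symbols from 20.7 to 38.5, a separation that the selection fixed. The marker lists were not selected in this way, and their wt symbols lie within the range of the null symbols.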

How the data were processed

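RNA libraries made with a TruSeq kit from 5 thyroid tumor cell samples (2 BVE-Ctnnb1wt, 3 BVE-Ctnnb1null) were sequenced on a HiSeq platform. Per library, the authors deposited the estimated count of each RefSeq transcript, which may be fractional, and its FPKM, from 0.01 FPKM upward. Aligner, counting program, genome build and annotation are not given in the sources used here. Samples were grouped by their labels. Both values were summed per NCBI gene number, with unlisted genes as 0, and counts were rounded. Symbols of 17866 of 17923 genes came from the RefSeq table of GRCm38.p6 and 10 from the study's supplementary list of symbols.

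Counts were fitted with edgeR 4.0.16 in R 4.3.3 (TMM, filterByExpr, quasi-likelihood test, all 5 libraries, threshold 0.05), checked on simulated data. Alternatives were DESeq2 1.42.0, other count filters, limma 3.58.1 on log2(FPKM + 0.1) or log2(FPKM + 1), leaving out each library, the replicate number as a block, and other limits, floors and scalings of the rule. Python 3.11.15 with pandas 2.3.3 applied the rule, and matplotlib 3.10.9 drew the figures. The members, gene lists and partner genes were chosen with earlier results of these data known. All 30 members are named, with the 5 genes nearest outside the limit, the genes left out by name, Ctnnb1, up to 4 abundant genes per list, and partner genes chosen after the members were known. Other genes are named where a count or a defining marker called for it. Experiments in mice were not analysed here.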

Additional observations from a re-analysis of the deposited data

How the results depend on the processing

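The number of genes kept by the rule was 30. It was 19 with a lowest wt value of 5 FPKM, 106 with a ratio of 2, 60 with FPKM scaled by TMM factors, and between 56 and 78 when 1 library was left out. Without wt replicate 1 it was 66, without wt replicate 2 it was 61, and without null replicates 1, 2 and 3 it was 56, 69 and 78. All 30 genes were shared in each of these settings except the limit of 5 FPKM, which shared 19. A limit of 1 FPKM (41), a ratio of 8 (20), a floor of 0.01 FPKM (30), the strongest transcript only (31) and equal FPKM sums (24) stayed within 1.5 times. Fewer libraries make the rule easier to meet by construction; other causes were not tested.

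Against 0 genes called lower and 0 higher, DESeq2 gave 487 and 1113, no filter on low counts gave 4 and 0, at least 10 counts in every library gave 1 and 0, limma on log2(FPKM + 0.1) gave 5 and 1, and limma on log2(FPKM + 1) gave 7 and 1. Leaving out any 1 null library gave 0 in both directions, a count that could not fall below the 0 of all libraries. Leaving out a wt library leaves 1 library in that group, so no calls are given for those fits. The replicate block also gave 0 and 0. Deviations from the group mean had a correlation of -0.0882 between the libraries numbered 1. With 2 wt libraries these deviations mirror each other by construction (0.0882 for wt 2 with null 1). The value therefore does not settle whether same-numbered libraries deviate together. The cause of the differing numbers of calls was not tested. The members were chosen on this same contrast, so their calls are a description only. Of the members, 29 of 29 were past the threshold with DESeq2, beside 487 of all 13240 genes called lower. It was 2 of 30 with limma and 0.1 added and 4 of 30 with 1 added, beside 5 and 7 of all 11888 genes. With no filter on low counts it was 0 of 30 (beside 4 of 17904 genes), and with at least 10 counts in every library 0 of 4 (beside 1 of 10900). With the replicate block, or without any 1 null library, it was 0 of 29. The most negative fitted log2 fold change among the members was -9.65 (Vip) over all libraries, -13.91 (Eno1b) without null replicate 1, and -13.97 (Cxcl14) without null replicate 2, where the null libraries left had few or no counts.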
